A study of Mus musculus with 9 samples.

Results

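Mammary tumors treated with NanoTLZ, a liposome that carries the PARP inhibitor Talazoparib, were compared with tumors of saline-treated mice by RNA sequencing. The members are 6 of the 9 tumors of the series, chosen by their labels alone: 3 tumors given saline (A3673, A3685 and A3688) and 3 given Nano-Talazoparib intravenously (C3519, C3669 and C3698). Each NanoTLZ mouse received 5 doses of 0.33 mg/kg, at 3 doses a week, starting when its tumor measured 4 mm across. All mice carried Brca1Co/Co;MMTV-Cre;p53+/-, so the control tumors share the Brca1 deletion, its mammary-directed Cre and the loss of a p53 allele, and no tumor of another genotype is among them. The remaining 3 tumors (B3638, B3684 and B3700) received free Talazoparib intravenously on the same schedule and entered the model for the spread between tumors. Mice given empty liposomes were not analysed here, so an effect of the carrier and one of the drug inside it cannot be told apart.

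PARP1 and PARP2 bind breaks in DNA and build chains of poly(ADP-ribose) that call in repair factors. Talazoparib blocks this reaction and holds PARP on the DNA, and replication forks that meet the trapped enzyme break. Cells that lack BRCA1 cannot repair such breaks by homologous recombination, which is why PARP inhibitors are used against BRCA-deficient tumors. A lipid bilayer with a polyethylene glycol coat keeps the drug in the circulation for longer and favours its delivery through the leaky vessels of a tumor. Brca1-deficient mammary tumors are held to arise from luminal progenitor cells and often resemble the basal-like breast cancers of BRCA1 carriers.

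The 6 libraries held 17538380 to 21194980 counts, and 15821 of the 35275 genes in the table passed the filter on low counts. Levels are given as CPM, counts scaled to each library's TMM-adjusted total, always in the order A3673, A3685, A3688 for saline and C3519, C3669, C3698 for NanoTLZ. Where a sentence gives 2 sets of 3 values, the saline set comes first. The epithelial markers Krt8, Krt18 and Epcam were present in every tumor, with Epcam between 790.4 and 1182 CPM. A3688 stood apart: its Spearman correlation with the other saline tumors was 0.872 to 0.875 and with the NanoTLZ tumors 0.861 to 0.875, whereas A3673 and A3685 correlated with the NanoTLZ tumors at 0.937 to 0.963. The NanoTLZ tumors correlated with each other at 0.965 to 0.970. The saline tumors thus varied more among themselves than the treated ones, and values without A3688 are given for many of the lists and genes that it moved.

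Only Col2a1 passed edgeR's test across all genes, and it rose after NanoTLZ. Col2a1 encodes the alpha chain of type II collagen, the main collagen of cartilage. Around it lay a much wider set of genes whose 3 NanoTLZ tumors were all above or all below the 3 saline tumors. Above lay some clustered histone genes, matrix metalloproteinases, chemokines and markers of T cells, macrophages and vessels. Below lay some genes of DNA replication, mitosis, homologous recombination and muscle. Only part of each class separated in this way, and the counts are given below. With so few tumors a side, many genes separate without any effect of treatment. In bulk tumor RNA, fewer cells of a type and less RNA per cell cannot be told apart, and this holds for every cell type below.

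With edgeR's quasi-likelihood test over 15821 genes, 1 gene was higher (0.00632%) and 0 were lower at an adjusted p under 0.05. At an unadjusted p under 0.05 the test had 555 genes higher (3.51%) and 868 lower (5.49%). Upper quartile scaling gave 698 higher and 618 lower at this level, so the balance of directions depends on the scaling. DESeq2 fitted to the 6 tumors called 84 higher (0.502%) and 85 lower (0.508%) of 16723 genes, and limma-voom called 1 and 0. The groups did not overlap for 1237 genes that were higher (7.82%) and 1286 that were lower (8.13%), and these shares are the background for the counts of each gene list below. The filter keeps a gene that is expressed in the tumors of 1 group alone. In lists of sparse genes the signs and medians are therefore partly fixed by it, and the background is then not a like comparison. Of the 20 ways to split 6 tumors 3 against 3, 1 puts the treated tumors all above and 1 all below. Many genes therefore separate without any effect of treatment, and the shares of 7.82% and 8.13% were not tested against that level. An exact permutation test of 3 tumors against 3 cannot go below 0.1, so none was used for single genes. The p-values assume that each tumor is a separate animal, and they measure the spread between these tumors only.

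Col2a1 (ENSMUSG00000022483, chromosome 15, 97975602 to 98004695 of GRCm38, minus strand) stood at 9.38, 14.2 and 21.3 CPM in the saline tumors and 298, 628 and 799 CPM after NanoTLZ. Every treated tumor lay at least an order of magnitude above every saline tumor. The means were 14.97 ± 5.98 and 575 ± 255 CPM (SD, n = 3 each). Its log2 fold change was 5.26 ± 0.49 (SE), with an adjusted p of 0.0127 in edgeR and 1.52e-21 in DESeq2. The edgeR call was lost without A3685, without C3669 and in a fit of the 6 tumors alone, with log2 fold changes of 5.23, 5.23 and 5.27. In the free Talazoparib tumors Col2a1 stood at 191, 176 and 141 CPM, below each NanoTLZ tumor, and the direct contrast of NanoTLZ against free drug was 1.76 ± 0.42 on the log2 scale (adjusted p = 0.999943 in edgeR).

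**Figure D1:**
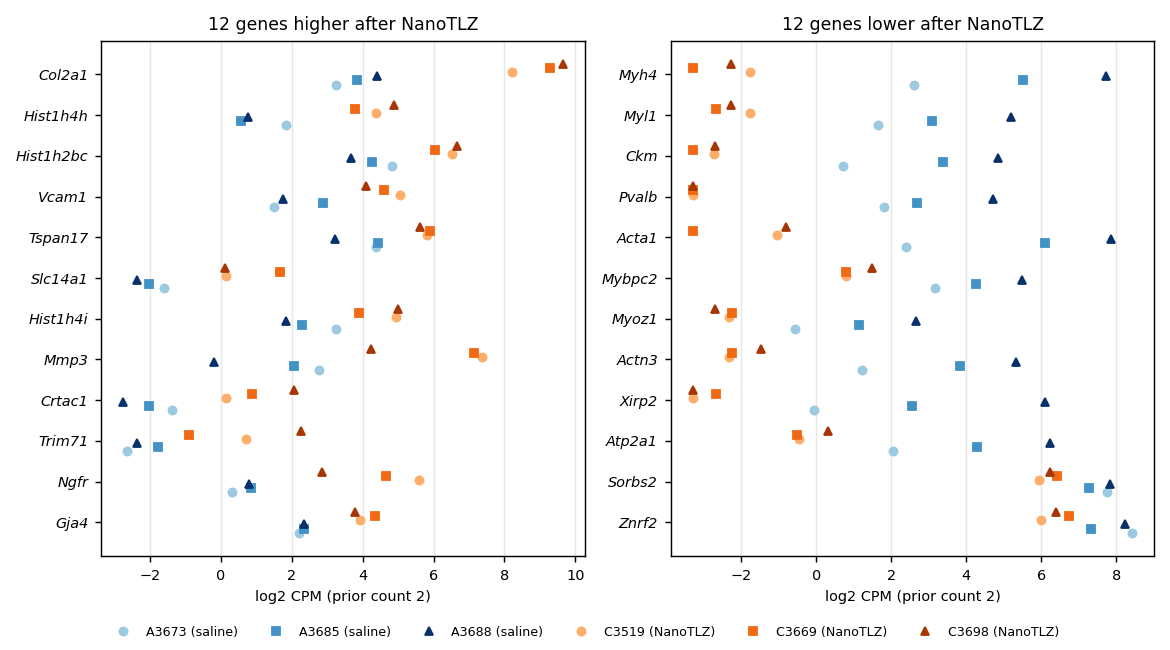
Levels in single tumors of the 12 higher (left) and 12 lower (right) genes with the smallest p among those whose groups do not overlap, as log2 CPM with a prior count of 2 on the horizontal axis, blue for saline and orange for NanoTLZ. The muscle genes on the right spread widely over the saline tumors, with A3688 highest, while Col2a1 separates the groups by the widest gap on the left.

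Other genes of cartilage matrix were uneven. Of 21 tested, 12 had a positive and 9 a negative log2 fold change, with a median of 0.23 against -0.09 over all tested genes, and 5 did not overlap, all higher. Acan, which encodes the large proteoglycan aggrecan, stood at 0.401, 12.5 and 1.84 CPM in saline and 151, 136 and 159 CPM in NanoTLZ tumors. Matn4, a matrilin that links matrix filaments, had 6.75, 4.15 and 0.184 and 69.4, 59.4 and 60.3 CPM. In both the treated tumors were close together and above every saline tumor, and DESeq2 called both (adjusted p = 1.56e-05 and 4.76e-04), with edgeR at an unadjusted p of 0.00577 and 0.00308. Chad, for chondroadherin, was at 3.78, 3.38 and 2.94 and 10.01, 10.8 and 14.8 CPM, a log2 fold change of 1.82 ± 0.59 against saline and 1.46 ± 0.58 against free Talazoparib (edgeR adjusted p = 0.99994). Cilp2 reached 38.96 CPM in C3698 and 2.17 in C3519, over 0.334 to 0.7799 CPM in saline. The median of the list turned to -0.05 without C3698, so the set as a whole carried no steady direction. Phex, an endopeptidase of mineralizing tissue, had 0 to 0.0953 CPM in saline and 0.915, 0.819 and 0.414 CPM after NanoTLZ.

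Clustered histone genes made up 3 of the 12 higher genes with the smallest p. They encode the core and linker histones that package newly made DNA, and most of their transcripts end in a stem-loop rather than a poly(A) tail. Hist1h4h, a histone H4 gene, stood at 3.49, 1.38 and 1.61 CPM in saline and 20.7, 13.6 and 29.7 CPM in NanoTLZ tumors, a log2 fold change of 3.31 ± 0.53. Hist1h2bc, a histone H2B gene, stood at 28.4, 19.02 and 12.7 and 91.6, 65.4 and 101 CPM (2.10 ± 0.36). For both genes a clear gap lay between the lowest treated and the highest saline tumor, and both were called by DESeq2 (adjusted p = 1.15e-06 and 8.73e-04) but not by edgeR (adjusted p = 0.376 for each). A list of all clustered histone genes was added after these values were seen: of 40 tested, 35 were higher and 5 lower by fold change, the median was 1.13, and 16 were higher and 1 lower without overlap. The exception, Hist1h2ap, stood at 2.57, 1.62 and 6.33 CPM in saline and 1.29973, 0.491 and 0.414 CPM after treatment. Summed over the list, the level was 212, 113 and 116 CPM in saline and 357, 301 and 349 CPM in NanoTLZ tumors. These genes are near-identical copies whose reads can be shared among them, so single members are uncertain. Whether the libraries were selected for poly(A) tails is not given in the sources used here, and its part in these values was not tested.

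The replication and mitosis genes lay on the opposite side. All 34 replication genes and all 32 mitosis genes had a negative log2 fold change, against 56.1% of all tested genes. The medians were -0.82 and -1.22 on the log2 scale, and 17 and 21 genes lay below saline without overlap. At an unadjusted p under 0.05 edgeR had 10 of the replication and 26 of the mitosis genes lower. None passed the adjusted test, and DESeq2 called 0 and 2.

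Among the replication genes, Mcm6, a subunit of the helicase that unwinds DNA ahead of the fork, stood at 165, 93.5 and 256 CPM in saline and 92.1, 65.2 and 67.3 CPM in NanoTLZ tumors. Pole, the leading-strand polymerase, had 35.5, 27.9 and 91.6 and 22.7, 18.99 and 16.8 CPM. Dtl, which marks replication proteins for destruction, had 77.1, 42.9 and 81.7 and 35.5, 31.7 and 25.8 CPM. In all 3 genes the lowest saline tumor was A3685, the saline tumor nearest to the treated ones, and the fold changes of -1.20 ± 0.49, -1.41 ± 0.50 and -1.12 ± 0.44 became -0.76, -0.67 and -0.92 without A3688. Pcna, the sliding clamp, and Gins3 of the helicase complex had the smallest changes of the list, at -0.28 ± 0.27 and -0.21 ± 0.42.

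Among the mitosis genes, Cdk1, the kinase that starts mitosis, stood at 46.4, 50.9 and 209.9 CPM in saline and 34.03, 29.3 and 29.8 CPM after NanoTLZ. Plk1, a kinase of spindle assembly, had 37.6, 20.7 and 87.5 and 17.8, 13.3 and 16.5 CPM, and Hmmr, a microtubule-binding protein, 30.3, 18.7 and 69.8 and 12.9, 6.77 and 11.5 CPM. A3688 was the highest tumor in each, and the treated tumors were tightly grouped below the lowest saline tumor. Their log2 fold changes of -1.72, -1.62 and -1.93 became -0.62, -0.85 and -1.20 without A3688. Without A3688 the median of the mitosis list was -0.86 and that of the replication list -0.49, against 0.01 over all genes, and 21 and 18 members then did not overlap, over a background of 14%. Mki67, the proliferation marker, stood at 286, 101 and 939.952 and 107, 75.3 and 95.2 CPM and overlapped between groups, since C3519 lay above A3685. Top2a, the topoisomerase that untangles replicated chromosomes, held its value without A3688: 429, 241 and 325 CPM in saline, 158, 135 and 138 CPM in NanoTLZ tumors, -1.20 ± 0.29 with and -1.19 without that tumor.

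Promoters of these genes carry motifs known from cell cycle regulation, and those of Mcm6 and Top2a are printed because both genes lay below saline in every treated tumor. Each shows the 250 bases before the RefSeq start on GRCm38.p6, 5′ to 3′ on the strand of the gene, at chr1:128359706-128359955 (minus strand) and chr11:99024190-99024439 (minus strand). Capitals mark TTGGCGC or TTCCCGC, the E2F-type letters, in Mcm6, and the CCAAT box in Top2a, each on either strand.
Mcm6: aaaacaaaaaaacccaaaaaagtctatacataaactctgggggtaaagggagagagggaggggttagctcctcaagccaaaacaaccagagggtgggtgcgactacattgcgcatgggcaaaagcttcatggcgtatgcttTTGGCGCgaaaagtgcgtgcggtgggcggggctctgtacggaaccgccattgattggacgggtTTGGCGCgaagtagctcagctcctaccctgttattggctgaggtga
Top2a: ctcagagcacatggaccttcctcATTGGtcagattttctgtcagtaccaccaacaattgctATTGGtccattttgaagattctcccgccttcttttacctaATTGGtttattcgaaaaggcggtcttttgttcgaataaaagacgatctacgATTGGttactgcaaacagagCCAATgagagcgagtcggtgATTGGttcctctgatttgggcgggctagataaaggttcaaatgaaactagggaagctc
Mcm6 held TTGGCGC at 109 and 46 bases before its start. Top2a held 6 CCAAT boxes, 5 of them as ATTGG. An E2F-type motif stood in 12 of 33 promoters of replication genes (36.4%) and 3 of 29 of mitosis genes (10.3%), against 5.62% of all 32851 promoters. CCAAT stood in 22 of 33 (66.7%) and 23 of 29 (79.3%), against 33.8%, and TTTGAA, the letters of the cell cycle homology region, in 4 of 33 (12.1%) and 9 of 29 (31.0%), against 16.0%. In each list 28 genes had a promoter in the table, and a match describes letters only. TTGGCGC can share its TTGG with a CCAAT box read on the other strand.

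**Figure D2:**
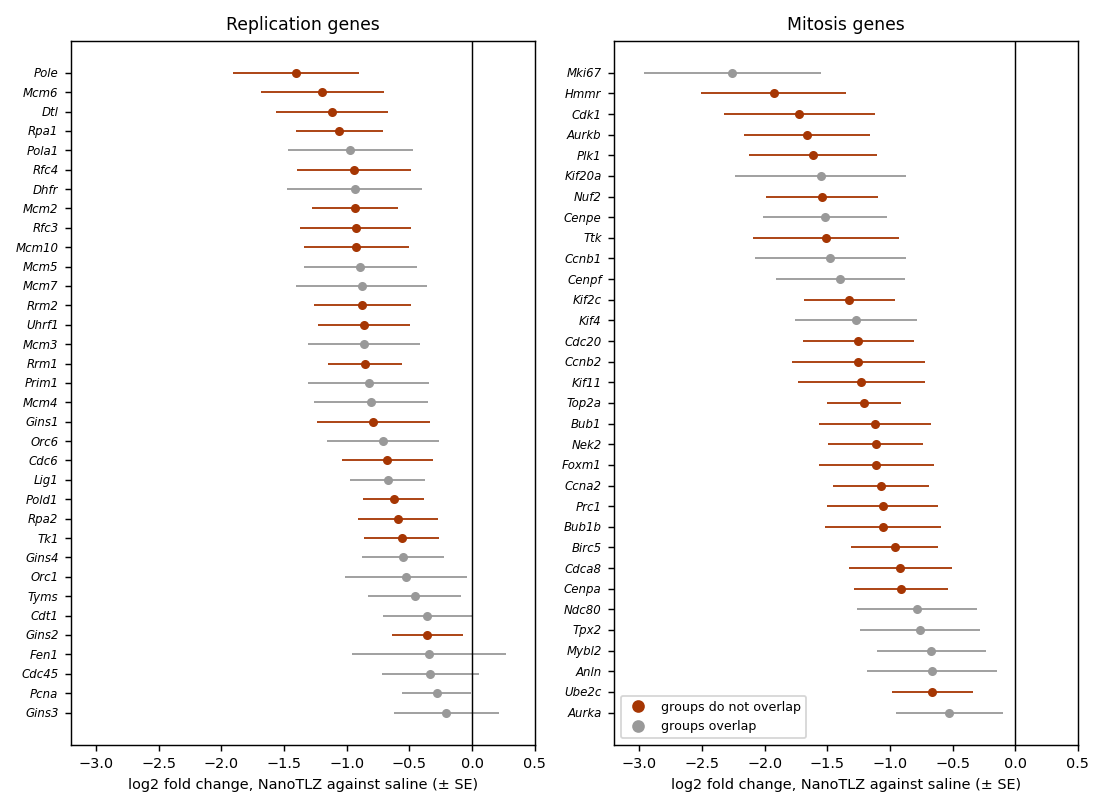
Log2 fold change of NanoTLZ against saline (horizontal axis, points with SE bars) for 34 replication genes and 32 mitosis genes, red where the groups do not overlap and grey where they do. Every point lies left of 0, from -0.21 for Gins3 to -2.26 for Mki67.

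Homologous recombination genes lay on the same side, with a median equal to that of the replication genes at this rounding. Of 30 tested, 26 were lower by fold change, with a median of -0.82 (-0.42 without A3688), and 11 did not overlap, all lower. Fancd2, which guards stalled forks, stood at 14.2, 9.25 and 44.1 CPM in saline and 7.08, 6.99 and 4.86 CPM in NanoTLZ tumors, and its partner Fanci at 12.6, 5.62 and 13.1 and 4.38, 2.95 and 4.398 CPM. For both genes every treated tumor lay below every saline tumor, and their log2 fold changes of -1.84 and -1.41 became -0.86 and -1.19 without A3688. Brca2, a tumor suppressor of the same pathway, stood at 20.9996, 7.72 and 57.3 and 15.98, 13.5 and 8.85 CPM and overlapped. Brca1 transcript counts lay at 32.6, 29.6 and 42.7 CPM in saline and 18.4, 18.2 and 19.8 CPM after NanoTLZ. A count over the whole gene does not show the deleted exon, so it does not check the genotype.

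The drug targets differed little. Parp1 stood at 172, 135 and 156 CPM in saline and 121, 91.7 and 127 CPM in NanoTLZ tumors, without overlap but with a log2 fold change of only -0.45 ± 0.31 (edgeR adjusted p = 0.653). Parp2 was at 15.6, 17.2 and 32.8 and 16.8, 19.5 and 23.6 CPM, -0.13 ± 0.35, and took the other sign without A3688 (0.31). Parp3, which acts in end joining, lay higher at 27.2, 25.3 and 5.00048 and 31.1, 44.7 and 40.8 CPM. Of 19 genes of the PARP family and its repair partners 5 were higher and 14 lower by fold change, with a median of -0.21. Among end joining genes Parpbp, an inhibitor of recombination, stood at 14.8, 4.38 and 23.3 and 2.94, 3.44 and 3.47 CPM (DESeq2 adjusted p = 0.0519). Trp53 was at 23.4, 34.6 and 45.6 and 108, 29.4 and 31.3 CPM, and its log2 fold change of 0.70 became -0.18 without C3519.

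The drug efflux gene Abcb1a, for P-glycoprotein, of which Talazoparib is a substrate, stood at 0.973, 1.95 and 2.34 CPM in saline and 3.47, 13.3 and 3.57 CPM in NanoTLZ tumors. C3669 was the highest tumor, and the groups did not overlap, with a log2 fold change of 1.94 ± 1.27. In the free Talazoparib tumors its level was 2.18, 68.9 and 1.46 CPM, and the direct contrast of NanoTLZ against free drug was -1.83 ± 1.24 (edgeR adjusted p = 0.99994). Abcc3, an exporter of conjugated compounds, stood at 28.8, 30.1 and 19.04 and 46.1, 50.1 and 63.4 CPM (1.04 ± 0.31). Abcg2 overlapped at 2.69, 11.7 and 8.17 and 5.87, 3.66 and 6.26 CPM.

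Targets of p53 showed no common direction. Of 25 tested, 15 were higher and 10 lower by fold change, with a median of 0.25, and 2 higher and 1 lower did not overlap. Cdkn1a, the cell cycle inhibitor p21, stood at 46.1, 50.5 and 46.1 CPM in saline and 74.9, 76.1 and 57.2 CPM in NanoTLZ tumors (0.55 ± 0.27). Mdm2, which degrades p53, was at 60.9, 71.7 and 58.4 and 64.2, 79.6 and 54.1 CPM (0.05 ± 0.27), and Ccng1 at 52.5, 48.04 and 54.7 and 53.8, 47.2 and 53.2 CPM (-0.01 ± 0.25). The Mdm2 and Ccng1 levels of the groups were interleaved. Perp, a membrane protein of cell junctions and cell death, was the member without overlap on the lower side, at 115, 101 and 705 and 36.01, 58.5 and 58.6 CPM, of which A3688 held the extreme, and its log2 fold change of -2.59 became -1.05 without it.

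Stress genes outside the p53 list gave a few separations. Ddit3, the CHOP factor of the unfolded protein response, stood at 18.2, 17.97 and 10.4 CPM in saline and 30.3, 38.3 and 37.7 CPM in NanoTLZ tumors, 1.19 ± 0.29 (edgeR adjusted p = 0.552). Herpud1, of protein quality control at the endoplasmic reticulum, had 60.3, 37.2 and 41.01 and 61.3, 65.9 and 158 CPM. Srxn1, which restores oxidized peroxiredoxins, had 32.7, 41.03 and 27.8 and 66.05, 59.1 and 55.4 CPM. All 3 lay above saline in each treated tumor, while the median of the 20 unfolded protein response genes was 0.29 and that of the 25 antioxidant genes 0.20. The unfolded protein response median rested on single tumors, at -0.0030 without A3688 and -0.0070 without C3698, and the antioxidant median was 0.35 without A3688. Bcl2l1, the survival factor Bcl-xL, stood at 120.3, 115 and 50.3 and 157, 135 and 172 CPM, and Xiap, a caspase inhibitor, at 148, 93.2 and 124 and 86.7, 74.5 and 80.5 CPM. The apoptosis list as a whole was balanced, with 12 genes higher and 12 lower by fold change.

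T cell, MHC class II, chemokine, complement and macrophage genes leaned to higher levels in the NanoTLZ tumors, and neutrophil and mast cell genes did not. All 20 T cell genes and all 10 MHC class II genes had a positive log2 fold change, against 43.9% of all tested genes, and so did 24 of 26 chemokine ligands, 13 of 14 complement genes and 19 of 22 macrophage genes. Of 22 listed T cell genes 20 passed the filter. Sparse ones such as Foxp3 and Cd2 could pass through the NanoTLZ tumors alone, which favours a positive sign. The T cell count and median are thus partly fixed by the filter, as are those of sparse members of the other lists. The medians on the log2 scale were 1.51 for T cells, 1.37 for MHC class II, 1.43 for chemokines, 1.16 for complement and 1.06 for macrophages, and without A3688 they were 1.28, 0.92, 1.205, 0.83 and 0.78. Without overlap and higher were 8, 4, 10, 5 and 6 of these genes in turn, and 0 were lower without overlap. No single gene of the 5 lists passed edgeR's adjusted test, and DESeq2 called 0, 0, 2, 1 and 1. Neutrophil genes had a median of -0.12 and mast cell genes of -0.75, with 6 of 10 and 3 of 4 lower by fold change. MHC class I genes were higher by fold change in 13 of 14, with a median of 0.69 (0.45 without A3688). NK cell genes were higher in 4 of 6, and both of these lists had 0 genes without overlap. Dendritic cell genes were higher in 8 of 10, with a median of 0.98. Of these 10 genes 5 lay higher and 0 lower without overlap, and DESeq2 called 0.

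Levels of T cell genes were low. Cd2, an adhesion receptor of T cells, stood at 0.229, 0.6195 and 0.184 CPM in saline and 2.65, 1.201 and 1.66 CPM in NanoTLZ tumors. Foxp3, the factor that defines regulatory T cells, had 0.229, 0.143 and 0.0918 and 0.818, 0.546 and 0.776 CPM, and Zap70, a kinase of T cell receptor signalling, 0.229, 1.19 and 0.321 and 2.36, 2.07 and 3.31 CPM. Each was above saline in every treated tumor. Cd3e and Cd8a overlapped, because C3669 lay below A3685: Cd8a stood at 1.14, 4.098 and 0.551 and 7.798, 1.801 and 10.5 CPM. Summed over the list, T cell genes reached 16.99, 45.4 and 28.7 CPM in saline and 81.3, 36.9 and 84.1 CPM in NanoTLZ tumors, so the sums overlapped even though every fold change was positive.

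Chemokine ligands draw leukocytes into tissue, and 10 of 26 lay above saline without overlap. Cxcl12, the ligand of Cxcr4, stood at 5.49, 2.67 and 6.47 CPM in saline and 21.95, 24.7 and 17.1 CPM in NanoTLZ tumors, a log2 fold change of 2.12 ± 0.56 (DESeq2 adjusted p = 0.00149). Ccl2, which draws monocytes, had 3.605, 9.34 and 4.04 and 26.7, 42.95 and 14.8 CPM, 2.31 ± 0.62 (DESeq2 adjusted p = 0.009405). The treated tumors were above every saline tumor for both. Ccl17 and Ccl22, ligands of Ccr4, also did not overlap, with 1.83, 3.38 and 1.03 and 2.46, 1.15 and 0.517 CPM in the NanoTLZ tumors over saline maxima of 0.905 and 0.505 CPM. Cxcl9 and Cxcl10, induced by interferon gamma, did overlap. Cxcl9 stood at 20.8, 13.2 and 0.596 and 50.3, 12.7 and 119 CPM, with C3669 inside the saline range. Vcam1, the endothelial and stromal adhesion molecule that leukocytes bind, was among the 12 higher genes with the smallest p, at 2.75, 7.29 and 3.26 and 33.02, 24.4 and 16.97 CPM (2.48 ± 0.49, DESeq2 adjusted p = 7.67e-04).

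Macrophage genes separated by member. Gpnmb, a glycoprotein of lipid-laden and phagocytic macrophages, stood at 4.41, 4.67 and 3.35 CPM in saline and 51.9, 27.1 and 14.95 CPM in NanoTLZ tumors, 2.92 ± 0.73, and was called by DESeq2 (adjusted p = 3.38e-05). Mertk, a receptor for engulfing dying cells, had 10.6, 10.4 and 6.15 and 23.4, 15.6 and 22.6 CPM, and Lyz2, for lysozyme, 192, 1573 and 406 and 3262, 3642 and 2259.8 CPM. The 3 genes did not overlap. Cd163, a scavenger receptor, went the other way at 11.5, 24.02 and 29.5 and 14.8, 11.1 and 5.07 CPM (-1.07 ± 0.48). Lysosomal Ctsl stood at 303, 355 and 119.8 and 634, 693 and 561 CPM and the lipoprotein receptor Lrp1 at 145, 151 and 144 and 274, 327 and 291 CPM, both above saline in every treated tumor. The summed macrophage level was 1910.2, 6459 and 1745 CPM in saline and 8100.1, 9212 and 9127 CPM after NanoTLZ, with A3685 closest to the treated tumors.

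MHC class II genes, which present antigen to helper T cells, were low in A3673 and A3688. H2-Aa stood at 20.5, 91.5 and 9.54 CPM in saline and 109, 116 and 125 CPM in NanoTLZ tumors, and H2-Eb1 at 3.204, 19.6 and 2.66 and 24.4, 22.8 and 25.9 CPM. A3685 was just below the treated tumors in both. The median of the list was 2.84 without A3685, and no leave-one-out median was negative. Interferon-stimulated genes had a median of 0.67 (0.50 without A3688 and 0.38 without C3698), with 20 of 29 higher by fold change, and 6 lay higher and 1 lower without overlap, among the higher ones Ifit1 at 1.03, 1.81 and 1.79 and 5.97, 5.13 and 2.43 CPM. Of the complement genes C1s1, a protease of the classical pathway, had the smallest p, at 6.47, 8.53 and 4.496 and 35.6, 14.3 and 45.5 CPM (2.29 ± 0.61, DESeq2 adjusted p = 0.00454).

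Plasma cell genes were carried by C3519 and C3698. Igkc, the kappa light chain, stood at 1.202, 5.34 and 0.459 CPM in saline and 97.3, 4.86 and 26.5 CPM in NanoTLZ tumors, and Jchain, which joins secreted IgA and IgM, at 0.572, 2.002 and 0.505 and 26.9, 1.47 and 7.45 CPM. C3669 lay inside the saline range for both, so the groups overlapped. Of 12 B and plasma cell genes 10 were higher by fold change with a median of 3.10, 2 did not overlap, and the leave-one-out medians ran from 1.54 to 3.66. Neutrophil genes gave no direction, at 6003, 1069 and 165 CPM in saline and 698, 1190.5 and 629 CPM in NanoTLZ tumors in sum.

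**Figure D3:**
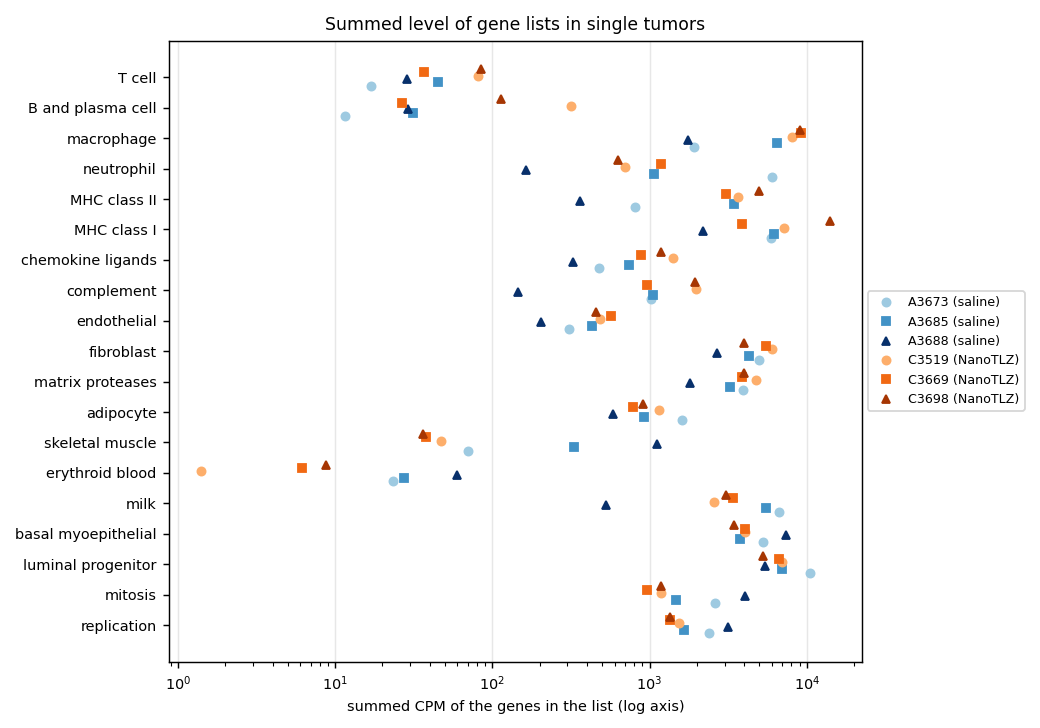
Summed CPM of the genes of 19 lists (log horizontal axis) in each saline (blue) and NanoTLZ (orange) tumor. Macrophage genes lie at 8100.1 to 9212 CPM in the NanoTLZ tumors, above the 3 saline tumors, and skeletal muscle and erythroid genes lie below all 3.

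Endothelial genes were higher in a narrow range. Of 18 tested, 17 had a positive log2 fold change, 9 did not overlap, all higher, and the median was 0.61 (0.46 without A3688). DESeq2 called 0 of the 18. Gja4, a gap junction protein of arteries outside this list, stood at 4.52, 4.96 and 5.00048 CPM in saline and 15.2, 20.2 and 13.8 CPM in NanoTLZ tumors. Its log2 fold change was 1.76 ± 0.39, and DESeq2 called it (adjusted p = 9.11e-04). Egfl7, secreted by endothelium, had 7.27, 14.5 and 10.9 and 17.96, 31.5 and 18.99 CPM, and Eng, a co-receptor for TGF-beta, 21.2, 36.2 and 15.7 and 47.7, 57.2 and 44.2 CPM. Pecam1 and Cdh5, markers of all endothelium, overlapped at 33.2, 40.6 and 18.7 against 47.6, 48.03 and 35.2 CPM and 32.5, 38.98 and 19.4 against 37.5, 43.4 and 39.3 CPM. The exception in direction was Lyve1, of lymphatic endothelium, which A3688 alone held high (10.001 CPM against at most 1.16 elsewhere) and whose log2 fold change was -2.65 with that tumor and 0.19 without it.

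Fibroblast genes had a median of 0.59, with 15 of 17 higher by fold change and 5 without overlap. Pdgfra, the receptor that marks fibroblasts, stood at 22.8, 17.01 and 15.2 CPM in saline and 33.1, 57.8 and 55.05 CPM in NanoTLZ tumors, 1.41 ± 0.42 (DESeq2 adjusted p = 0.0475). Dcn, for decorin, stood at 18.5, 21.02 and 16.1 and 21.4, 155 and 30.6 CPM, with C3669 far above the rest. Of 19 other collagen genes, listed apart from the fibroblast genes, 13 were higher and 6 lower by fold change, with a median of 0.45. Without overlap 4 of them lay higher and 1 lower, and DESeq2 called 0. In this list Col6a1 and Col5a1, chains of the collagens that organize fibrils, had 157, 174 and 173 against 495, 274 and 315 CPM and 103, 75.96 and 89.3 against 205, 223 and 133 CPM. Both lay above saline in every treated tumor by about the same log2 fold change, 1.11 and 1.06. Pericyte and smooth muscle genes showed no direction, with a median of 0.11.

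Mmp3, Mmp10, Mmp12 and Mmp13, matrix metalloproteinases of a cluster on chromosome 9, had log2 fold changes above 3. These secreted enzymes cut collagens and other matrix proteins, Mmp3 being a stromelysin, Mmp13 a collagenase and Mmp12 the elastase of macrophages. Of 25 matrix protease and inhibitor genes 19 were higher by fold change, 8 did not overlap, all higher, and DESeq2 called 5. The promoters of Mmp3, Mmp13 and Mmp12 are printed because the 3 genes share a motif next to a start. Each shows the 250 bases before a RefSeq start on GRCm38.p6 at chr9:7445572-7445821 (plus strand), chr9:7272264-7272513 (plus strand) and chr9:7347124-7347373 (plus strand). Mmp12 has 2 RefSeq starts, and only the promoter of the start with the higher coordinate is printed. The promoter of its other start is not among those that held the AP-1 letters. Capitals mark the AP-1 letters TGAGTCA and the TATA box TATAAA, searched on either strand.
Mmp3: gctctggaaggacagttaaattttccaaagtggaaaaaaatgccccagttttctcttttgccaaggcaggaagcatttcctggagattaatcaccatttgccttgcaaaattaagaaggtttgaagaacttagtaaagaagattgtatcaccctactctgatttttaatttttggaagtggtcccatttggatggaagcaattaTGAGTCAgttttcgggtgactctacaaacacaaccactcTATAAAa
Mmp13: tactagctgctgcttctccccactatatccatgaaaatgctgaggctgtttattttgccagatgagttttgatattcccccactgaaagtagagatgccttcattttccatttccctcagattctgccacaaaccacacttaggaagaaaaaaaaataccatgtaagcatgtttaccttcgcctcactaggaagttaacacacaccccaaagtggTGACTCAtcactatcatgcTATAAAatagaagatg
Mmp12: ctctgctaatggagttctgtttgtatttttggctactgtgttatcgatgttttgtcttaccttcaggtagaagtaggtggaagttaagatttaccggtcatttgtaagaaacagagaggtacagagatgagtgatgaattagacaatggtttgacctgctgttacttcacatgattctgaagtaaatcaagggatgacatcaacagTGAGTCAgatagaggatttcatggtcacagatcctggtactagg
The AP-1 letters began 46, 35 and 44 bases before the starts shown. They stood in 5 of 19 promoters of the list (26.3%), which cover 17 of its 27 genes, against 4.46% of all 32851. The other 2 were Mmp10 and Mmp7 of the same cluster.

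Mmp3 (ENSMUSG00000043613, chromosome 9, 7445822 to 7455975 of GRCm38) stood at 6.75, 4.098 and 0.7799 CPM in saline and 164, 140.1 and 18.8 CPM in NanoTLZ tumors. Mmp13 stood at 11.1, 25.4 and 3.899 and 724, 421 and 97.3 CPM, and Mmp12 at 12.9, 18.3 and 3.17 and 211, 84.1 and 41.96 CPM. No treated tumor overlapped a saline tumor in the 3 genes, with C3698 the lowest of the treated ones. The log2 fold changes were 4.80 ± 1.05, 4.94 ± 1.19 and 3.29 ± 0.83, with DESeq2 adjusted p of 9.07e-06, 3.77e-07 and 0.00172 and edgeR adjusted p of 0.552 for each. Mmp10, a second stromelysin, stood at 1.83, 3.05 and 0.184 and 82.7, 18.2 and 6.73 CPM. Mmp8, the collagenase of neutrophils in the same cluster, overlapped at 1.83, 0.6195 and 0.229 and 2.26, 1.04 and 2.48 CPM, with a log2 fold change of 1.12, and Mmp1a, Mmp1b and Mmp7 of the cluster were too sparse to be tested. In the free Talazoparib tumors Mmp13 stood at 379.9, 22.9 and 74.99 CPM and Mmp3 at 100.003, 78.01 and 16.5 CPM, and the direct contrasts of NanoTLZ against free drug were 1.38 ± 1.02 and 0.73 ± 0.89.

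The genes on both sides of this cluster were high in C3519. Dync2h1, Dcun1d5, Tmem123, Birc2, Birc3, Yap1, Cfap300 and Cep126, chosen after their values were seen, stood 9.29 to 34.4 times as high in C3519 as in the mean of the other NanoTLZ tumors. Yap1, the growth-promoting co-activator of the Hippo pathway, had 253, 86.9 and 168 CPM in saline and 1737, 70.1 and 161 CPM in NanoTLZ tumors. Birc3, an inhibitor of apoptosis, had 70.7, 36.3 and 17.2 and 764, 39.1 and 64.5 CPM. Without C3519 the log2 fold change of Yap1 went from 1.96 to -0.54 and that of Birc3 from 2.81 to 0.32. The proteases kept most of theirs: 4.36 for Mmp3, 4.27 for Mmp13, 2.46 for Mmp12 and 2.88 for Mmp10. Among the free Talazoparib tumors B3684 held the same neighbours high, with 1294 CPM of Yap1. DNA copy number was not analysed here, and its part in these levels was not tested.

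**Figure D4:**
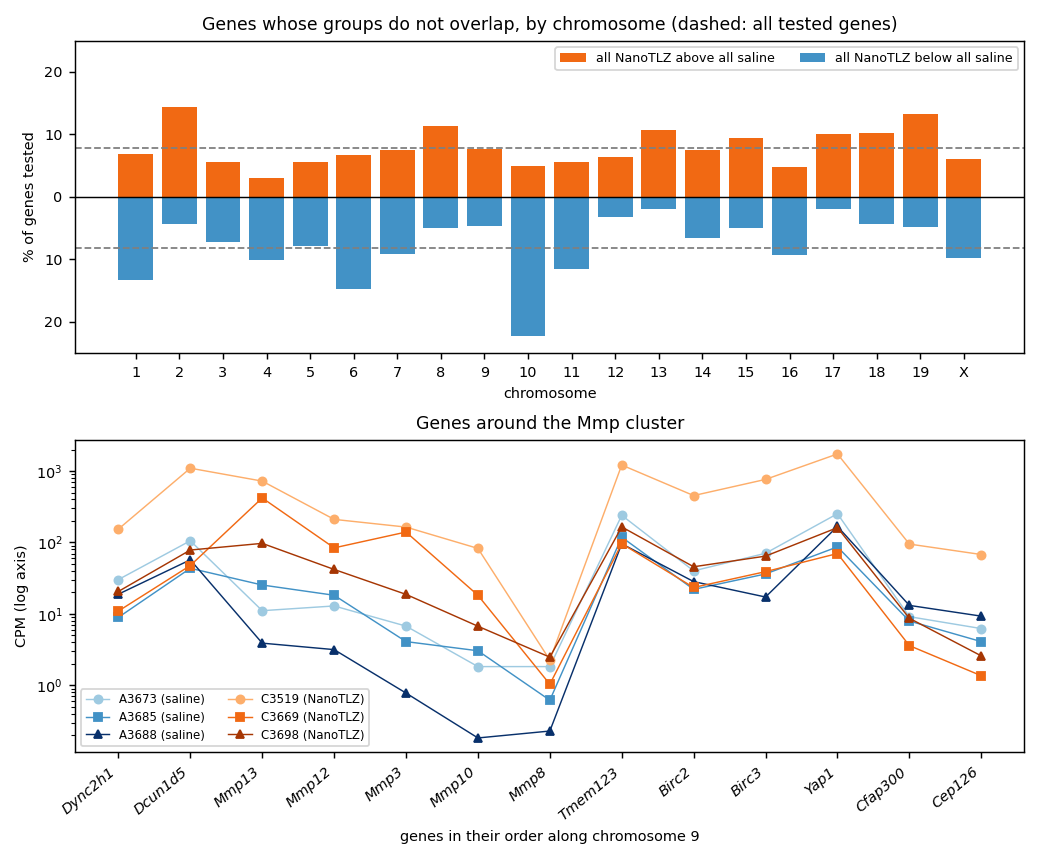
Top, percent of tested genes on each chromosome whose groups do not overlap, above 0 for higher and below 0 for lower in NanoTLZ tumors, with the share over all tested genes dashed. Bottom, CPM (log axis) of genes in order along chromosome 9 in single tumors: C3519 exceeds every other tumor shown at the 8 outer genes, while Mmp13, Mmp12, Mmp3 and Mmp10 are above saline in all 3 NanoTLZ tumors.

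Separation of the groups was uneven along the genome. On chromosome 10, 22.2% of 716 tested genes lay lower without overlap, against 8.13% overall. The lower genes gathered in the first 60 Mb, a window set after the values were seen: there 98 of 214 genes (45.8%) lay below every saline tumor, the median log2 fold change was -0.87, and without A3688 the share was 49.5% and the median -0.49, over 14% for all genes. Beyond 60 Mb the share was 12.2%. Chromosome 6 had 14.8% and chromosome 1 had 13.3% lower, and chromosomes 13 and 17 had 1.86% and 1.88%. With A3688 included, the shares of higher genes were widest on chromosome 2 (14.5%) and chromosome 19 (13.2%). The ranking of chromosomes depended on this tumor. Without A3688 the widest share of higher genes was on chromosome 13, at 40.6% in place of 10.7%, over 13.7% for all genes. The widest share of lower genes was then on chromosome 4, at 35.1% in place of 10.1%, and chromosome 10 as a whole had 25.4%. Copy number per chromosome was not analysed here.

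Skeletal muscle genes gave the most negative median of any list. Of 25 tested, 24 were lower by fold change, with a median of -3.21, 14 did not overlap on the lower side, and DESeq2 called 12. Of 31 listed genes these 25 passed the filter. Members near 0 after NanoTLZ, such as Pvalb and Ckm, could pass through the saline tumors alone. For such genes a lower sign is fixed by the filter, so the count and the median lean to the lower side. The summed level of all 31 listed genes was 69.5, 328 and 1115 CPM in saline and 47.4, 37.8 and 35.96 CPM in NanoTLZ tumors. The saline tumors thus spanned more than an order of magnitude while the treated ones were uniformly low. Pvalb, the calcium buffer of fast muscle, had 3.43, 6.39 and 26.1 CPM in saline and 0 counts in all 3 NanoTLZ libraries, at least 77.4-fold lower when 3 counts per library are set as the floor. Ckm, the muscle creatine kinase, stood at 1.54, 10.3 and 28.7 and 0.0481, 0 and 0.0517 CPM, and Atp2a1, the calcium pump of fast muscle, at 4.01, 19.5 and 75.1 and 0.626, 0.6003 and 1.14 CPM. Without A3688 the median of the list was -1.83 and 14 genes still did not overlap. Muscle lies next to the mammary gland, and its part in the dissected tissue was not tested. Tnnc1, shared by heart and slow fibres, was the exception at 0.858, 1.33 and 0.551 and 1.44, 2.78 and 1.35 CPM.

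Red blood cell genes were also lower, all 4 tested by fold change with a median of -2.07 (-1.33 without A3688). Only these 4 of 7 listed genes passed the filter, and the limit named for the muscle genes holds here too. The beta globin gene Hbb-bs stood at 12.3, 14.7 and 31.4 CPM in saline and 0.626, 2.18 and 3.47 CPM in NanoTLZ tumors, -3.22 ± 0.94 (DESeq2 adjusted p = 4.76e-04). Hba-a1, for alpha globin, stood at 9.61, 10.5 and 24.3 and 0.144, 1.96 and 3.73 CPM. Both separated the groups, with C3519 lowest. Globin copies are near-identical, and reads may be split among them.

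Luminal progenitor genes lay lower in part. Of 18 tested, 15 had a negative fold change, the median was -0.56, and 4 did not overlap, all lower. Without A3673 the median was -0.0074. Ehf, an epithelial ETS factor, stood at 320.1, 327 and 265 CPM in saline and 166, 154 and 160.4 CPM in NanoTLZ tumors, and Elf5, the ETS factor of alveolar progenitors, at 104, 67.2 and 66.8 and 52.9, 36.2 and 40.4 CPM. Kit, the stem cell factor receptor, completed the pattern at 315, 291 and 416 and 164, 179 and 165 CPM. The 3 genes had narrow ranges within each group and log2 fold changes of -0.93 ± 0.27, -0.88 ± 0.28 and -1.01 ± 0.28 at unadjusted p of 0.00591, 0.01101 and 0.00461. Krt8 and Krt18, keratins of all luminal cells, overlapped at -0.44 ± 0.46 and -0.19 ± 0.54. Egfr, the receptor for EGF, lay lower at 102, 40.8 and 40.8 and 23.3, 26.3 and 24.1 CPM (-1.32 ± 0.39), and its ligand Tgfa at 56.8, 61.4 and 122 and 46.7, 45.6 and 31.8 CPM. Tnfrsf19, a receptor of the Wnt list, stood at 17.6, 15.7 and 31.7 and 6.79, 2.89 and 5.79 CPM and was called lower by DESeq2 (adjusted p = 0.00998). Hormone-sensing luminal genes were lower by fold change in 11 of 16, with a median of -0.63 (-0.14 without A3688). Of these 16 genes 1 lay higher and 0 lower without overlap. That gene, Greb1, a target of the estrogen receptor, ran against most of its list at 0.801, 0.143 and 0.138 and 10.5, 2.95 and 1.81 CPM (DESeq2 adjusted p = 0.00568).

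Basal genes depended on A3688. Their median was -1.32 with and -0.09 without this tumor. Krt5, a basal keratin, reached 1849 CPM in A3688 against 2.33 to 11.7 CPM in the other 5, while Krt14 was high in all 6, at 1228, 752 and 802 and 1015, 1091 and 554 CPM. The log2 fold change of Krt5 was -6.29 with A3688 and 1.01 without it. Snai2, Cdh2 and Zfp365 were likewise high in A3688 alone and took a positive sign without it (0.83, 0.55 and 0.93). Single NanoTLZ tumors set other values: Igf2, a fetal growth factor, stood at 3.03, 19.3 and 1082 CPM and Il1rl1, the receptor for interleukin 33, at 0.818, 30.9 and 0.724 CPM. Without C3698 the log2 fold change of Igf2 was 0.18 in place of 5.20, and without C3669 that of Il1rl1 was 0.68 in place of 4.45.

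Several further genes with a small p belonged to no list. Sorbs2, an adaptor of the actin cytoskeleton, stood at 217, 154 and 229 CPM in saline and 61.8, 84.9 and 75.8 CPM in NanoTLZ tumors, -1.43 ± 0.30 (DESeq2 adjusted p = 0.0124). Znrf2, a ubiquitin ligase, had 345, 161 and 303 and 63.1, 108 and 84.4 CPM, -1.67 ± 0.36 (DESeq2 adjusted p = 0.0218). Tspan17, a tetraspanin that guides the protease ADAM10, had 20.6, 21.4 and 9.18 and 56.8, 59.8 and 49.5 CPM, 1.70 ± 0.34 (DESeq2 adjusted p = 0.0192). These 3 were well expressed and separated in every tumor, the first 2 lower and Tspan17 higher. Crtac1 and Trim71, a cartilage matrix protein and an RNA-binding ligase of embryonic cells, were sparse, with 1.01, 1.75 and 4.09 and 1.54, 0.437 and 4.71 CPM after NanoTLZ over at most 0.286 and 0.191 CPM in saline.

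Lists of metabolism and of Wnt and growth factor signalling had medians near that of all genes. Oxidative phosphorylation had a median of -0.09, hypoxia and glycolysis -0.02, Wnt signalling 0.04 and growth factor receptors -0.17, with 3, 1, 4 and 7 genes without overlap of 26, 26, 32 and 31. Without A3688 the Wnt median was 0.43 and that of oxidative phosphorylation 0.13. TGF-beta and BMP genes had a median of 0.41 and 6 of 32 without overlap, all higher, among them Smad6, an inhibitor of BMP signals, at 7.78, 6.62 and 7.799 and 12.8, 13.6 and 20.95 CPM. Cholesterol synthesis genes were lower by fold change in 16 of 19, with a median of -0.48 that became -0.05 without A3688.

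**Figure D5:**
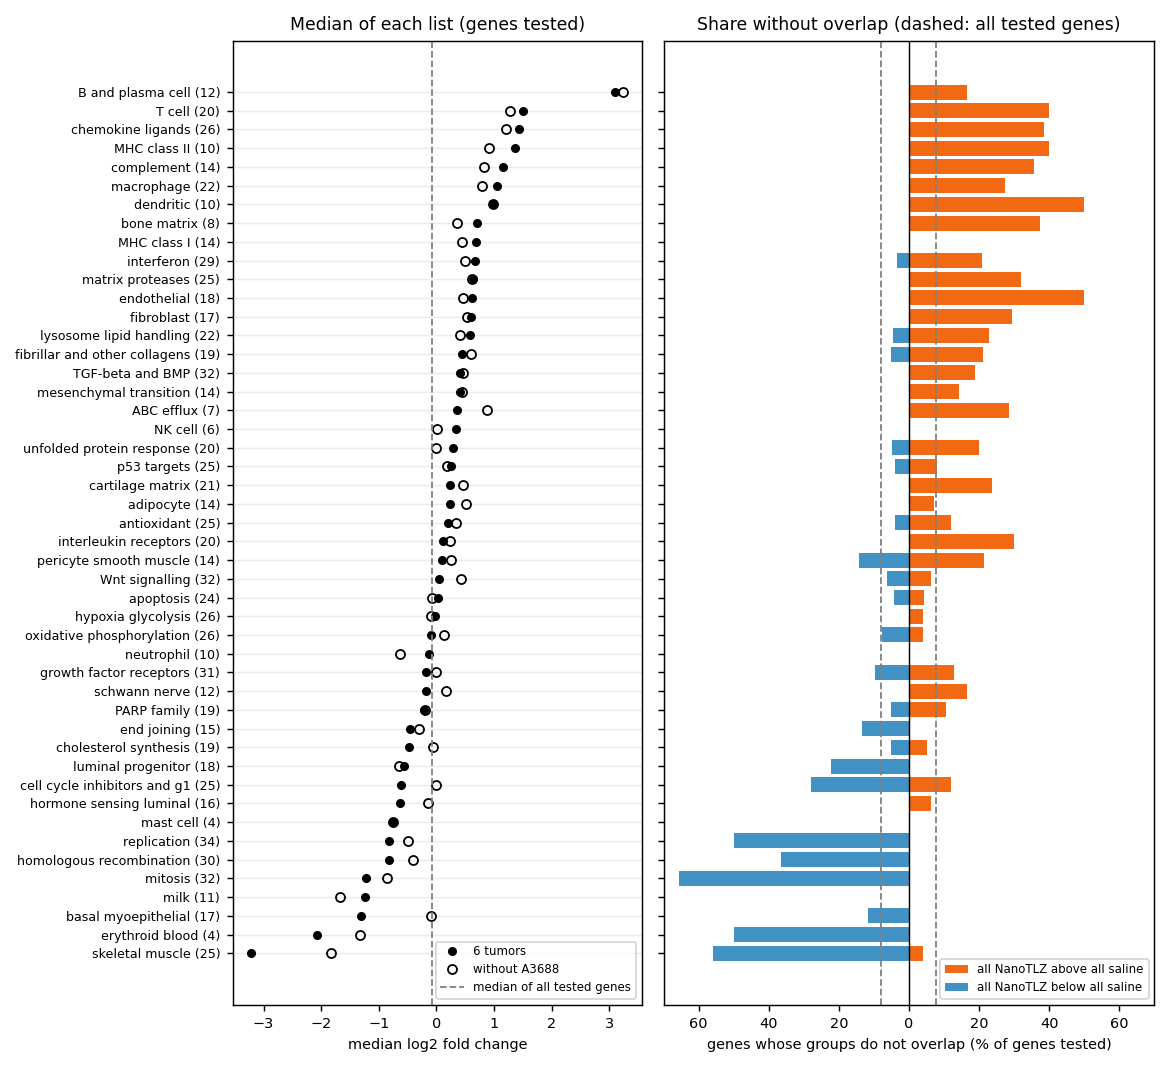
Left, median log2 fold change of each gene list with all 6 tumors (filled) and without A3688 (open), the number of genes tested in parentheses. Right, percent of each list whose NanoTLZ tumors all lie above (orange) or all below (blue) the saline tumors, with the background of 7.82% and 8.13% dashed; mitosis reaches 65.6% lower and the endothelial and dendritic lists 50% higher.

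The free Talazoparib tumors share the saline controls with this comparison, so their values are set beside those of NanoTLZ without a test of likeness. The list medians of NanoTLZ and of free drug against saline were -0.82 and -0.92 for replication, -1.22 and -1.10 for mitosis, 1.51 and 0.44 for T cells, 1.37 and 0.55 for MHC class II and 0.61 and 0.20 for endothelium. They were 0.63 and 0.93 for matrix proteases, 1.13 and 1.42 for clustered histones, 0.59 and 0.71 for fibroblasts and 3.10 and 2.92 for B and plasma cells. Neither formulation thus had the larger median throughout. In sum the B and plasma cell genes stood at 287, 11.04 and 20.2 CPM in B3638, B3684 and B3700, against 11.6, 31.4 and 28.9 CPM in saline. Of the free Talazoparib tumors, B3638 alone lay above saline. The direct contrast of NanoTLZ against free Talazoparib called 0 genes at an adjusted p under 0.05 in edgeR. At an unadjusted p under 0.05 it had 71 higher (0.449%) and 195 lower (1.23%). This contrast was fitted with edgeR alone. Against saline edgeR called 1 gene higher where DESeq2 called 84 higher and 85 lower. With 3 tumors a side, the 0 calls therefore do not show that the formulations were alike.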

How the data were processed

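RNA from 9 mammary tumors was sequenced, and 1 table of raw counts per gene was deposited. Per the labels, the authors aligned reads to mm10 with TopHat2 and tested with DESeq2; the program that counted reads, its annotation and its strand setting are not given in the sources used here. Groups came from the treatment labels, matched to columns by tumor name. Of 35275 gene IDs, 34490 matched GENCODE M21 names (GRCm38). Total counts were 17538380 to 21194980 in the 6 tumors compared, and counting error is small beside the spread between tumors.

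Counts were filtered with filterByExpr (minimum count 10, total 15), scaled with TMM and fitted to all 9 tumors with edgeR 4.0.16 (glmQLFit, glmQLFTest) in R 4.3.3, with Benjamini-Hochberg adjustment over 15821 genes and a threshold of 0.05. DESeq2 1.42.0, limma 3.58.1, RLE and upper quartile scaling, other filters and leaving out each tumor served as alternatives. The edgeR script was tested on simulated counts. Groups did not overlap where all 3 NanoTLZ tumors lay above, or all below, all 3 saline tumors in CPM. Named genes were those called, the 12 higher and 12 lower with the smallest p among genes without overlap, up to 2 per direction in each of 49 gene lists, and further members where a list is described. The members and lists were chosen with earlier results of these data known. Promoters came from RefSeq (GRCm38.p6).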

Additional observations from a re-analysis of the deposited data

How the results depend on the processing

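The number of genes called depended on the tool. DESeq2 called 84 genes higher and 85 lower on the 6 tumors and 54 and 47 on all 9, edgeR on the 6 tumors alone called 0 higher, and edgeR with no filter on low counts called 5 lower, against 1 and 0 here. limma-voom, RLE and upper quartile scaling, and a filter that kept genes with 10 or more counts in each tumor, left 1 higher and 0 lower. Leaving out each tumor in turn gave 0 to 1 higher and 0 to 2 lower. At an unadjusted p under 0.05 DESeq2 on the 6 tumors had 839 higher and limma-voom 560 lower, and the leave-one-out counts were 358 to 1127 higher and 403 to 1405 lower, with both highest counts reached without A3685. Genes without overlap numbered 1789 to 2780 higher and 1774 to 2666 lower when a tumor was left out, where fewer tumors overlap less by construction. Of the 164 genes examined, 20 changed sign in at least 1 alternative. Without A3688 the log2 fold change of Zfp365, Snai2, Cdh2, Krt5, Lyve1 and Parp2 turned positive, the leave-one-out values running from -5.25 to 0.93, -4.21 to 0.83, -4.69 to 0.55, -6.87 to 1.01, -3.62 to 0.19 and -0.29 to 0.31, and that of Epcam turned negative (-0.076 to 0.19). Without C3519, the tumor high over the chromosome 9 segment, those of Dcun1d5, Cep126, Dync2h1, Tmem123, Cfap300, Yap1 and Trp53 turned negative, running from -0.13 to 3.13, -1.72 to 2.46, -0.29 to 2.21, -0.21 to 2.23, -0.71 to 2.39, -0.54 to 2.52 and -0.18 to 1.04. The values of Krt18 (-0.44 to 0.43), Krt8 (-0.66 to 0.21), Krt14 (-0.21 to 0.22), Gins3 (-0.48 to 0.059), Mdm2 (-0.075 to 0.21) and Ccng1 (-0.061 to 0.081) also crossed 0 with a tumor left out. With upper quartile scaling Krt14 was at 0.042 and Ccng1 at 0.077, and Ccng1 was at 0.00078 with DESeq2 on the 6 tumors, 0.0017 on all 9, 0.0054 with RLE, 0.0019 with no filter and 0.013 with 10 or more counts in each tumor. DESeq2 on the 6 tumors called 52 of the 164 that edgeR did not. List medians kept their sign throughout in 38 of 49 lists, and the cartilage, milk, adipocyte, neutrophil, unfolded protein response, glycolysis, oxidative phosphorylation, nerve, NK cell, apoptosis and growth factor receptor lists turned in at least 1 alternative. The cause of these changes was not tested. No paired analysis was possible because each tumor had 1 treatment and the labels name no link between tumors of different groups. The biological coefficient of variation between tumors was 49.8%, and with 3 tumors a side it, not the sequencing depth, limited the precision for all but the sparsest genes.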
